A study of Rattus norvegicus with 8 samples.

Results

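The 8 genes described here belong to the DNA methylation machinery and were measured along the derivation of rat germ cell-like cells: Dnmt1, Dnmt3a, Dnmt3b, Dnmt3l, Uhrf1, Uhrf2, Zfp57 and Trim28. They were chosen by gene symbol for what their proteins do, and 8 of 8 were found among the 22228 named genes of the expression table. Each of the 8 passed the filter on low values (at least 1 TPM in at least 2 libraries), which 13571 genes passed in all. The 4 groups, of 2 libraries each, were made from rats of the strain Crlj:WI, and their genotype is listed as wild type although the germ cell groups were sorted by a tdTomato reporter at Nanos3. Embryonic stem cells (ESC) grew on mouse embryonic fibroblasts in N2B27 medium with the MEK inhibitor PD0325901 at 1 µM, the GSK3 inhibitor CHIR99021 at 3 µM and rat LIF at 1000 U/ml. Epiblast-like cells (EpiLC), which stand for the epiblast of the implanting embryo, were ESC aggregates kept for 60 hours in activin A at 20 ng/ml, bFGF at 12 ng/ml and KSR at 1%. The group PGCLC_d3 holds primordial germ cell-like cells after 3 days of such aggregates in BMP4 at 500 ng/ml, SCF at 100 ng/ml, EGF at 50 ng/ml and rat LIF at 1000 U/ml, sorted for the tdTomato reporter. For PGCLC_d3ag3, 5000 of these sorted cells were mixed with 50000 somatic cells of female gonads at E15.5, depleted of c-KIT-positive germ cells, and reporter-positive cells were sorted 3 days later from medium with KSR at 5%. Both germ cell groups are sorted fractions, so a change inside cells and a choice of cells by the sort cannot be told apart.

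DNA methylation in mammals is set by the de novo enzymes DNMT3A and DNMT3B, helped by DNMT3L, a relative without catalytic activity of its own that stabilises and stimulates them. After each round of replication DNMT1 copies the pattern onto the new strand, guided by UHRF1, which recognises hemimethylated sites, whereas its paralogue UHRF2 does not replace it in maintenance. ZFP57, a KRAB zinc finger protein, binds methylated imprinting control regions and brings in the corepressor TRIM28, which protects them from losing methylation. Primordial germ cells are known for erasing most of their DNA methylation, imprints included, before sex-specific patterns are laid down.

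Values are TPM (a transcript share scaled for gene length), recovered from the deposited log2(TPM + 1). Differences are of log2(TPM + 1), tested with limma over all 13571 genes, and a gene is said to rise or fall where its Benjamini-Hochberg adjusted p is under 0.05. Separate cultures are not named for the libraries of a group, and the p-values then measure only how far these libraries spread, which may be technical. In bulk RNA, fewer cells with a transcript and less transcript per cell cannot be told apart. The 2 libraries of a group correlated at 0.9946 to 0.9975 across genes, which are not independent replicates. Step sizes between the lowest values put the depth, relative to ESC replicate 1, at 1.14 to 1.5 in the other ESC, EpiLC and PGCLC_d3 libraries and at 2.17 and 2.38 in PGCLC_d3ag3. Summed marker levels followed the labels of the groups: naive ESC markers summed to 2050 to 2060 TPM in ESC and to at most 200 elsewhere, EpiLC markers to 362 to 369 in EpiLC and at most 35.8 elsewhere (carried by Otx2, Pou3f1 and Sall2, with Fgf5 at 0.0374 TPM in EpiLC and Zic2 at 4.45 in EpiLC and 9.30 in ESC), and gonadal germ cell markers to 1120 to 1150 in PGCLC_d3ag3 and at most 206 elsewhere. The 206 was in EpiLC, where Ddx4 was at 148 TPM, against 202 in PGCLC_d3ag3. Dazl, the largest part of the PGCLC_d3ag3 sum, was at 13.6 in EpiLC and 785 in PGCLC_d3ag3. Early PGC markers summed to 1420 to 1430 in PGCLC_d3 and 930 in PGCLC_d3ag3, against at most 116 in ESC and EpiLC.

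The median gene was 0.21 higher in PGCLC_d3 than in EpiLC and 0.18 lower in PGCLC_d3ag3 than in PGCLC_d3 on the log2 scale, and 0.04 higher in EpiLC than in ESC. Against ESC, PGCLC_d3 was 0.25 higher. Median-of-ratios rescaling brought these shifts to -0.02, -0.004, 0.002 and -0.003. Small member changes in the germ cell steps are therefore given under rescaling too. The share of called genes that were higher was 63.2% for PGCLC_d3 versus EpiLC as deposited, 49.2% after that rescaling and 51.1% under quantile normalization. For PGCLC_d3ag3 versus PGCLC_d3 these shares were 36.4%, 50.0% and 49.4%, and for PGCLC_d3 versus ESC 64.4%, 49.8% and 53.1%.

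The de novo enzymes peaked in EpiLC and were lowest in the germ cell groups. Dnmt3b, the main de novo enzyme of the early embryo, stood at 155 and 143 TPM in the ESC libraries, 2670 and 2890 in EpiLC, 33.8 and 27.6 in PGCLC_d3 and 25.1 and 30.0 in PGCLC_d3ag3. Both EpiLC libraries lay far above every other library, and the PGCLC_d3 and PGCLC_d3ag3 libraries overlapped. In EpiLC its mean ranked 17th among the tested genes, and in ESC 1393rd. The rise from ESC to EpiLC was 4.21 (SE 0.106, adjusted p = 9.38e-10), an 18.6-fold increase of the mean TPM, which 70 tested genes exceeded. From EpiLC to PGCLC_d3 it fell by 6.46 (SE 0.106, adjusted p = 1.11e-10), a 90.5-fold decrease of the mean. It did not pass the test between PGCLC_d3 and PGCLC_d3ag3, with a difference of -0.15 and a 95% interval of -0.39 to 0.09. That small difference was 0.06 after median-of-ratios rescaling and 0.10 under quantile normalization, and without PGCLC_d3 replicate 2 it was -0.29 with adjusted p = 0.0453.

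Dnmt3a, the other catalytic de novo enzyme, was at 13.4 and 16.3 TPM in ESC, 196 and 205 in EpiLC, 2.72 and 2.70 in PGCLC_d3 and 1.43 and 1.88 in PGCLC_d3ag3. No library of a group overlapped with another group, and the order was EpiLC, ESC, PGCLC_d3 and PGCLC_d3ag3. It rose 13.5-fold in mean TPM from ESC to EpiLC (log2 3.67, SE 0.125, adjusted p = 5.99e-09) and fell 73.9-fold from EpiLC to PGCLC_d3 (log2 -5.76, SE 0.125, adjusted p = 4.57e-10). The further step to PGCLC_d3ag3 was small, a fall of 0.49 (SE 0.125, adjusted p = 0.00572), and this call ended under quantile normalization, with a difference of -0.205 and adjusted p = 0.126. Against ESC, Dnmt3a differed by -2.09 in PGCLC_d3 (adjusted p = 1.82e-07) and -2.58 in PGCLC_d3ag3 (adjusted p = 4.30e-08). Dnmt3b differed by -2.25 (adjusted p = 3.41e-08) and -2.40 (adjusted p = 2.40e-08). RefSeq lists 3 pseudogene copies of Dnmt3a and 2 of Dnmt3b, so reads shared with such copies make these levels uncertain. The counts pool the transcripts of a gene, and RefSeq lists 12 for Dnmt3a.

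Dnmt3l, the cofactor, had its highest level earlier than the enzymes it helps. It was at 1120 and 1040 TPM in ESC, 331 and 255 in EpiLC, 0.856 and 0.123 in PGCLC_d3 and 0.455 and 0.178 in PGCLC_d3ag3. The ESC libraries were the highest and the EpiLC libraries came next, with no overlap, while the 4 germ cell libraries overlapped below 1 TPM. It fell by 1.89 from ESC to EpiLC (SE 0.214, adjusted p = 2.95e-05), a 3.69-fold decrease, in the same step in which Dnmt3a and Dnmt3b rose. From EpiLC to PGCLC_d3 it fell by 7.66 (SE 0.214, adjusted p = 1.74e-09), and 0 of the 13571 tested genes had a larger fall on this scale. Dnmt3b had the next largest fall and Dnmt3a was exceeded by 8 genes. Between the germ cell groups Dnmt3l differed by -0.14 (95% interval -0.62 to 0.34), and that difference ranged from -0.50 to 0.22 when a library was left out, since the PGCLC_d3 libraries themselves were unequal. Without PGCLC_d3 replicate 2 it passed the test at adjusted p = 0.0283.

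**Figure D1:**
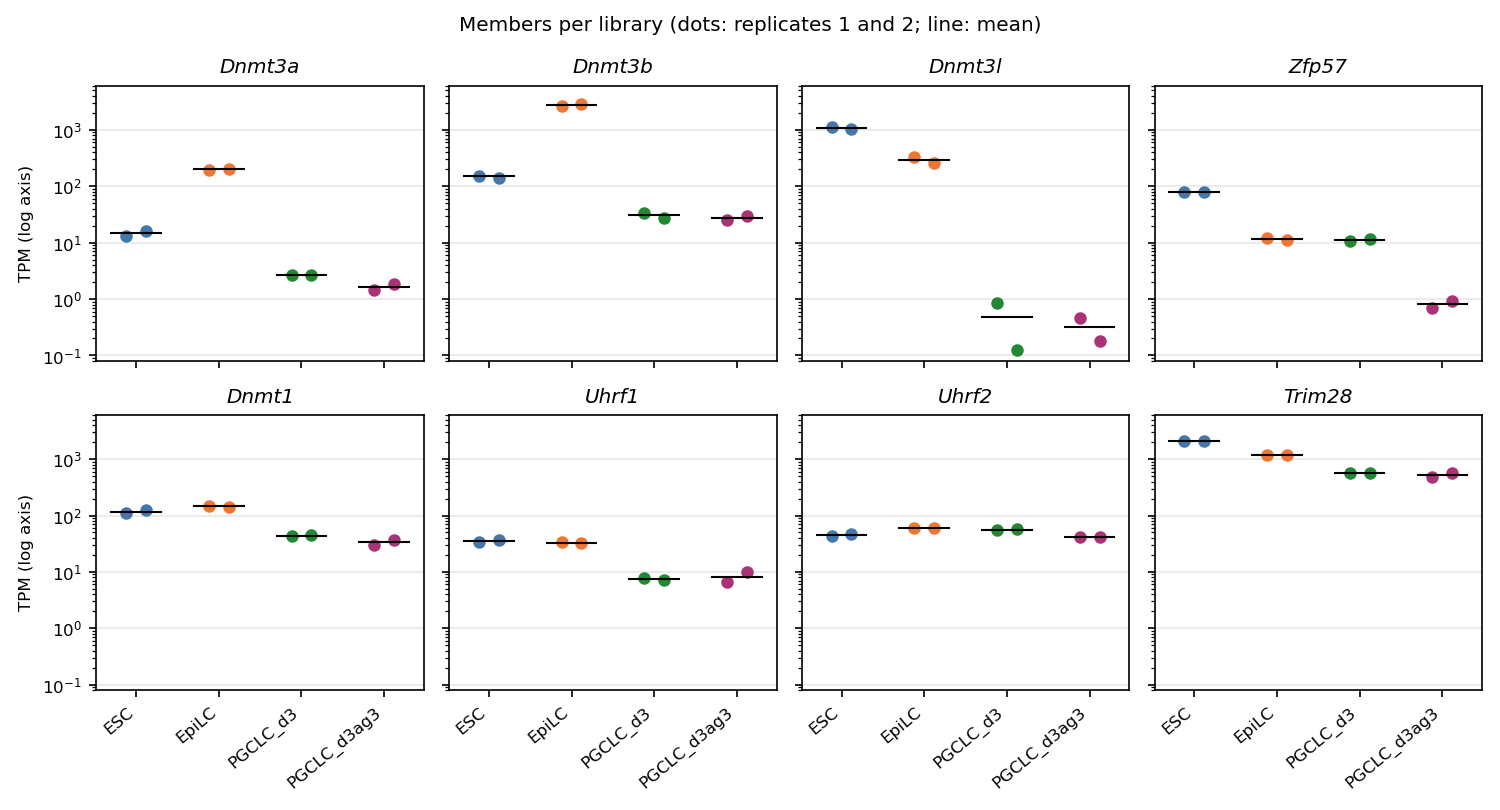
TPM on a log axis of each member in the 8 libraries, with the groups along the horizontal axis, dots for replicates 1 and 2 and a line for their mean. Dnmt3a and Dnmt3b peak in EpiLC, Dnmt3l, Zfp57 and Trim28 in ESC, and Uhrf2 stays between 41.8 and 60.9 TPM in every library.

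Promoter windows were examined for the 7 members with an entry in the RefSeq table of the build GRCr8, 9 windows in all because Uhrf1 has 3 start sites. Each holds 300 bases, most of them before the start, and was matched by gene symbol. Shown are Dnmt3a and Dnmt3l, which fell together in PGCLC_d3, and Uhrf2, which did not pass the test there as deposited. Under either rescaling Uhrf2 was lower in that step too. Capitals mark, on either strand, an E-box (CACGTG, a sequence bound by MAX dimers such as those with MYC or MGA), the E2F6 core (GCGGGA) and the GC box (GGGCGG, bound by SP1).
Dnmt3a, GRCr8 chr6:32598352-32598651, plus strand: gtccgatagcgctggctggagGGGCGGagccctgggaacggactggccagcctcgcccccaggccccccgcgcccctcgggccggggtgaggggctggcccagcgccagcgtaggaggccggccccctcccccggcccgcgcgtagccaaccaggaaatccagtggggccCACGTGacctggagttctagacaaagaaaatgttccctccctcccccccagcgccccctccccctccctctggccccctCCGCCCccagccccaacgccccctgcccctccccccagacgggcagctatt
Dnmt3l, GRCr8 chr20:10628940-10629239, minus strand: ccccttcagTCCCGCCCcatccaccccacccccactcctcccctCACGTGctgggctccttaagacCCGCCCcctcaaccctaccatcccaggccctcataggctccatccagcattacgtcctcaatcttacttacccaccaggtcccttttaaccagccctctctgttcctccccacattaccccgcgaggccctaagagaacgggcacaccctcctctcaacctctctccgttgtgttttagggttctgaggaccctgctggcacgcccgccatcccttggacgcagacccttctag
Uhrf2, GRCr8 chr1:237228225-237228524, plus strand: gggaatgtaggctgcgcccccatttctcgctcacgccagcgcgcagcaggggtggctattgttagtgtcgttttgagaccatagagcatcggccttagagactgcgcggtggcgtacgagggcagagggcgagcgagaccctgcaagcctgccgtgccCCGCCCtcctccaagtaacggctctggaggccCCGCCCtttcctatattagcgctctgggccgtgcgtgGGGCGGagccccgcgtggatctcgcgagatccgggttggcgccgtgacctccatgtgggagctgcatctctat
Counting from the 5′ end, the E-box starts at position 171 in the Dnmt3a window and 45 in the Dnmt3l window, and the other 7 windows of members hold none. Among these 7 are the windows of Dnmt1, Uhrf1 and Trim28, which also fell in PGCLC_d3. An E-box is present in 6.42% of the 33469 windows listed for all genes, the E2F6 core in 18.7% and a GC box in 33.1%. The E2F6 core of Dnmt3l, at position 10, overlaps a GC box at position 12. The core also occurs in Zfp57 (1 match), Trim28 (1) and in 2 of the 3 Uhrf1 windows (2 each), and not in the windows shown for Dnmt3a and Uhrf2 or in that of Dnmt1. The Dnmt3a window holds 21 CpG sites, that of Dnmt3l 11 and that of Uhrf2 28, against a median of 7 and an upper quartile of 19 over all windows. A match is a description of letters, not of binding, and the window of 1 start site does not cover the other starts of Dnmt3a.

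Maintenance genes fell at the germ cell step by smaller amounts. Dnmt1, the maintenance enzyme, was at 109 and 123 TPM in ESC, 148 and 142 in EpiLC, 43.1 and 44.5 in PGCLC_d3 and 30.0 and 37.1 in PGCLC_d3ag3. Its order was EpiLC, ESC, PGCLC_d3 and PGCLC_d3ag3, without overlap between groups. It fell 3.31-fold in mean TPM from EpiLC to PGCLC_d3 (log2 -1.705, SE 0.098, adjusted p = 1.87e-07). Its neighbours in that order were less firmly apart. The rise from ESC to EpiLC, of 0.33 (adjusted p = 0.0144), was lost when ESC replicate 1 was left out (0.24, adjusted p = 0.118) or EpiLC replicate 1 (0.29, adjusted p = 0.0864). The fall of 0.38 from PGCLC_d3 to PGCLC_d3ag3 (adjusted p = 0.00587) was -0.17 with adjusted p = 0.105 after median-of-ratios rescaling and -0.175 with adjusted p = 0.109 under quantile normalization. Without PGCLC_d3ag3 replicate 1 it was -0.234 with adjusted p = 0.0363.

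Uhrf1, which directs DNMT1 to hemimethylated DNA, was at 34.4 and 36.2 TPM in ESC, 33.5 and 32.0 in EpiLC, 7.83 and 7.26 in PGCLC_d3 and 6.52 and 9.77 in PGCLC_d3ag3. The pluripotent libraries formed one level and the germ cell libraries another, with the PGCLC_d3ag3 libraries on either side of those of PGCLC_d3. It fell by 1.98 from EpiLC to PGCLC_d3 (SE 0.150, adjusted p = 1.27e-06), a 4.34-fold decrease. From ESC to EpiLC it differed by -0.105 (95% interval -0.44 to 0.23, adjusted p = 0.56). Between the germ cell groups it differed by 0.075 (95% interval -0.26 to 0.41, adjusted p = 0.672). That value was 0.44 with adjusted p = 0.0239 under quantile normalization, and without PGCLC_d3ag3 replicate 1 it was 0.33 with adjusted p = 0.0188, against -0.18 without replicate 2.

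Uhrf2, the paralogue, kept to a narrow range. It was at 43.4 and 46.8 TPM in ESC, 59.4 and 60.9 in EpiLC, 54.7 and 57.2 in PGCLC_d3 and 41.8 and 42.4 in PGCLC_d3ag3. EpiLC and PGCLC_d3 were the higher groups. It rose by 0.41 from ESC to EpiLC (SE 0.067, adjusted p = 0.000397) and fell by 0.40 from PGCLC_d3 to PGCLC_d3ag3 (SE 0.067, adjusted p = 0.000429). The latter was -0.19 after median-of-ratios rescaling, with adjusted p = 0.0167. Between EpiLC and PGCLC_d3 it differed by -0.10 (95% interval -0.25 to 0.05, adjusted p = 0.188), but by -0.37 after median-of-ratios rescaling (adjusted p = 0.000333) and -0.33 under quantile normalization (adjusted p = 0.000715). Uhrf1 and Uhrf2 averaged 35.3 and 45.1 TPM in ESC, 32.7 and 60.2 in EpiLC, 7.55 and 56.0 in PGCLC_d3 and 8.15 and 42.1 in PGCLC_d3ag3.

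Both genes of the imprint-protecting pair fell from ESC to EpiLC, and their second falls came in different steps. Zfp57 was at 79.6 and 78.0 TPM in ESC, 12.3 and 11 in EpiLC, 10.9 and 11.4 in PGCLC_d3 and 0.689 and 0.920 in PGCLC_d3ag3. ESC stood highest and PGCLC_d3ag3 lowest, and the EpiLC and PGCLC_d3 libraries overlapped. It fell 6.76-fold from ESC to EpiLC (log2 -2.66, SE 0.112, adjusted p = 2.62e-08) and 13.9-fold from PGCLC_d3 to PGCLC_d3ag3 (log2 -2.75, SE 0.112, adjusted p = 6.38e-08), where 143 tested genes fell more. The step between, from EpiLC to PGCLC_d3, was -0.06 (95% interval -0.31 to 0.195, adjusted p = 0.661). It became -0.30 after median-of-ratios rescaling (adjusted p = 0.0286) and -0.43 under quantile normalization (adjusted p = 0.00589). Gonadal somatic markers summed to 43.9 to 51.1 TPM in PGCLC_d3ag3 and 35.3 to 38.2 in PGCLC_d3, with 6 and 4 of 12 at a mean of at least 1 TPM, and 0 of 12 listed at 0 in either group. Kitlg held the largest part of both sums, at 24.7 ± 1.05 TPM in PGCLC_d3 and 30.3 ± 9.01 in PGCLC_d3ag3 (SD, n = 2). Between these groups Wt1 went from 0.0505 ± 0.0154 to 1.22 ± 0.0785 and Amhr2 from 0.414 ± 0.0229 to 4.00 ± 0.365. Gata4 went from 2.6 to 4.91, Lhx9 from 0.72 to 1.02, Nr5a1 from 0.0738 to 0.807 and Foxl2 from 0.0344 to 0.375. Star went from 3.14 ± 0.0223 to 0.646 ± 0.135 and Fst from 4.90 ± 0.756 to 4.13 ± 2.84. Nr2f2, Tcf21 and Cyp11a1 stayed below 0.1. Endothelial and blood markers summed to 21.1 to 23.1 and 175 to 181 TPM, with 2 of 7 and 1 of 7 listed at 0. In that list Pecam1, which was at 104 TPM in ESC, went from 17.8 to 137 TPM and the haemoglobin gene Hba-a1 from 1.44 to 39.8, whereas Cdh5 went from 1.69 to 0.289 and Kdr from 0.907 to 0.248, and Emcn was listed at 0 in both groups. The part of such cells in the fall of Zfp57 was not tested.

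Trim28, the corepressor that also serves KRAB zinc finger proteins at transposons, remained abundant throughout. It was at 2090 and 2060 TPM in ESC, 1160 in both EpiLC libraries, 562 and 560 in PGCLC_d3 and 487 and 559 in PGCLC_d3ag3. Its mean ranked 32nd among the tested genes in ESC and 332nd in PGCLC_d3ag3. It fell by 0.84 from ESC to EpiLC (SE 0.063, adjusted p = 1.47e-06) and by 1.05 from EpiLC to PGCLC_d3 (SE 0.063, adjusted p = 2.42e-07). Between the germ cell groups it differed by -0.10 (95% interval -0.25 to 0.04, adjusted p = 0.163). The sign of that small difference depended on scaling, at 0.11 after median-of-ratios rescaling (adjusted p = 0.169) and -0.25 under quantile normalization (adjusted p = 0.00258). Without PGCLC_d3ag3 replicate 2 it was -0.20 with adjusted p = 0.00536.

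Set side by side, the 8 genes moved in both directions from ESC to EpiLC, and those that passed the test in the later steps fell. Dnmt3a, Dnmt3b, Dnmt1 and Uhrf2 rose from ESC to EpiLC, Dnmt3l, Zfp57 and Trim28 fell, and Uhrf1 did not pass. Over all tested genes 67.3% were called in that comparison, 35.4% higher and 31.8% lower. The median change of the members was 0.11 and that of all tested genes 0.04. From EpiLC to PGCLC_d3, 6 members fell and 0 rose, where 27.6% of all tested genes fell and 47.3% rose (74.9% called). With either rescaling, 8 of 8 members were lower. The median was -1.84 for the members and 0.21 for all tested genes. From PGCLC_d3 to PGCLC_d3ag3, Dnmt3a, Dnmt1, Uhrf2 and Zfp57 fell and 0 members rose, where 44.8% of all tested genes fell and 25.7% rose (70.4% called). After median-of-ratios rescaling 3 members fell and 0 rose, and under quantile normalization 3 fell and Uhrf1 rose. The median there was -0.27 for the members and -0.18 for all tested genes, so this count and median lie near the background. These 3 steps share the EpiLC or PGCLC_d3 libraries and are not independent of each other.

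Against ESC, the germ cell groups held less of nearly every member. In PGCLC_d3, 7 of 8 members were lower than in ESC and Uhrf2 was higher by 0.30 (adjusted p = 0.00201), where 27.4% of all tested genes were lower and 49.6% higher (77.0% called). The Uhrf2 call ended after median-of-ratios rescaling, at -0.003 with adjusted p = 0.964, and under quantile normalization, at 0.10 with adjusted p = 0.137. In PGCLC_d3ag3, 7 of 8 were lower than in ESC and 0 higher, where 34.8% of all tested genes were lower and 42.5% higher (77.3% called). Uhrf2 differed there by -0.10 (95% interval -0.25 to 0.05), and passed as lower after median-of-ratios rescaling (-0.19, adjusted p = 0.0134). In PGCLC_d3ag3 versus EpiLC 8 of 8 members were lower, with a median of -2.45 against 0.05 for all tested genes, of which 36.7% were lower and 41.0% higher (77.7% called). For Zfp57 the total fall from ESC to PGCLC_d3ag3 was 5.47 (SE 0.112, adjusted p = 2.65e-10), with 43 tested genes falling more. Dnmt3l fell by 9.69 over the same span, and 0 tested genes fell more.

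**Figure D2:**
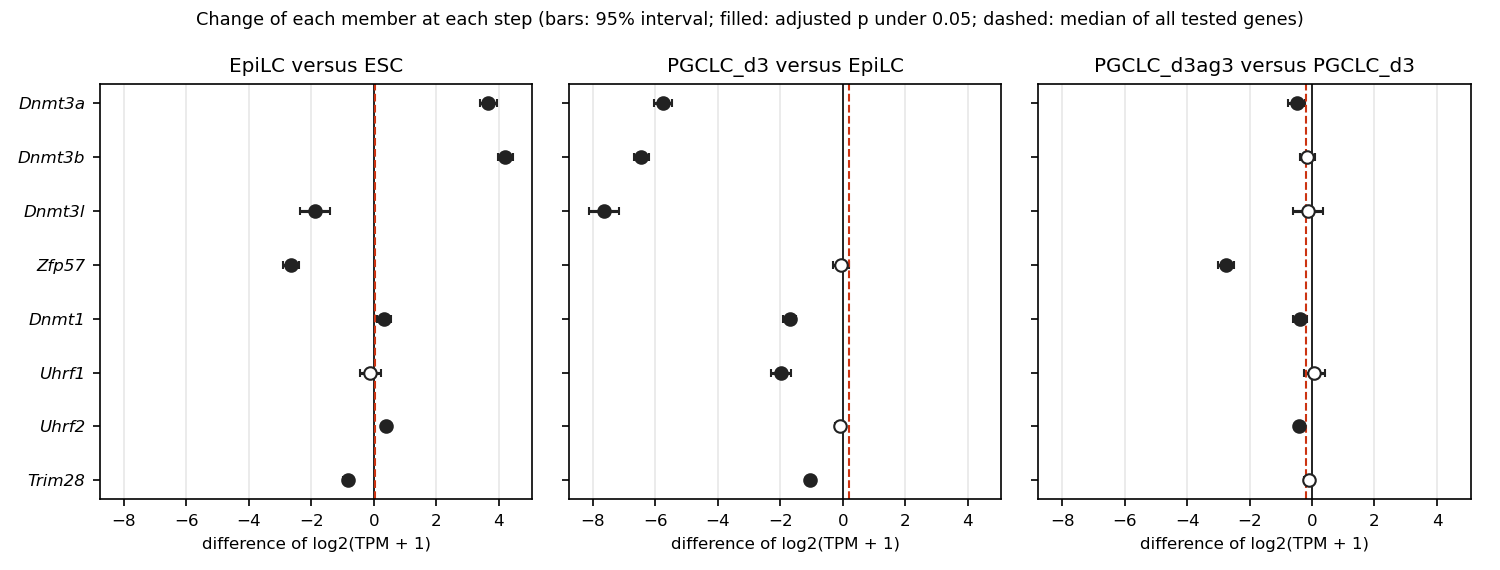
Difference of log2(TPM + 1) of each member at the 3 successive steps, with bars for the 95% interval, filled dots for an adjusted p under 0.05 and a dashed line for the median of all tested genes. The largest falls are those of Dnmt3l, Dnmt3b and Dnmt3a from EpiLC to PGCLC_d3, and Zfp57 stands alone at -2.75 in the last step.

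Because TPM is scaled for gene length, levels of different members can be compared within a library. Ratios of TPM + 1 are given as a description, since 2 libraries against 2 cannot go below p = 0.333 in an exact 2-sided permutation test. Dnmt3b exceeded Dnmt3a in every library. The ratio was 10.8 and 8.36 in ESC, 13.5 and 14.0 in EpiLC, 9.36 and 7.72 in PGCLC_d3 and 10.7 and 10.8 in PGCLC_d3ag3. The ratio thus stayed between 7.72 and 14.0 while the mean TPM fell 73.9-fold for Dnmt3a and 90.5-fold for Dnmt3b from EpiLC to PGCLC_d3. Near 1 TPM the added 1 matters: with TPM + 0.1 the ratio was 11 ± 1.53 (SD, n = 2) in PGCLC_d3 and 15.8 ± 0.851 in PGCLC_d3ag3.

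Dnmt3l relative to the sum of Dnmt3a and Dnmt3b was the ratio with the widest range. It was 6.62 and 6.48 in ESC, 0.116 and 0.0828 in EpiLC, 0.0495 and 0.0359 in PGCLC_d3 and 0.0529 and 0.0358 in PGCLC_d3ag3. Transcripts of the cofactor thus outnumbered those of the enzymes in ESC and were the minority from EpiLC on. In the germ cell groups these values rest on the added 1, and were 0.0167 ± 0.0133 and 0.0148 ± 0.00862 (SD, n = 2) with TPM + 0.1.

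De novo relative to maintenance transcripts, as the sum of Dnmt3a and Dnmt3b over Dnmt1, went from 1.55 and 1.3 in ESC to 19.2 and 21.6 in EpiLC, 0.851 and 0.687 in PGCLC_d3 and 0.887 and 0.864 in PGCLC_d3ag3. The EpiLC libraries stood apart, and the germ cell libraries lay below those of ESC without overlap. Uhrf1 over Dnmt1 moved much less, at 0.322 and 0.3 in ESC, 0.231 in both EpiLC libraries, 0.200 and 0.181 in PGCLC_d3 and 0.243 and 0.283 in PGCLC_d3ag3.

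**Figure D3:**
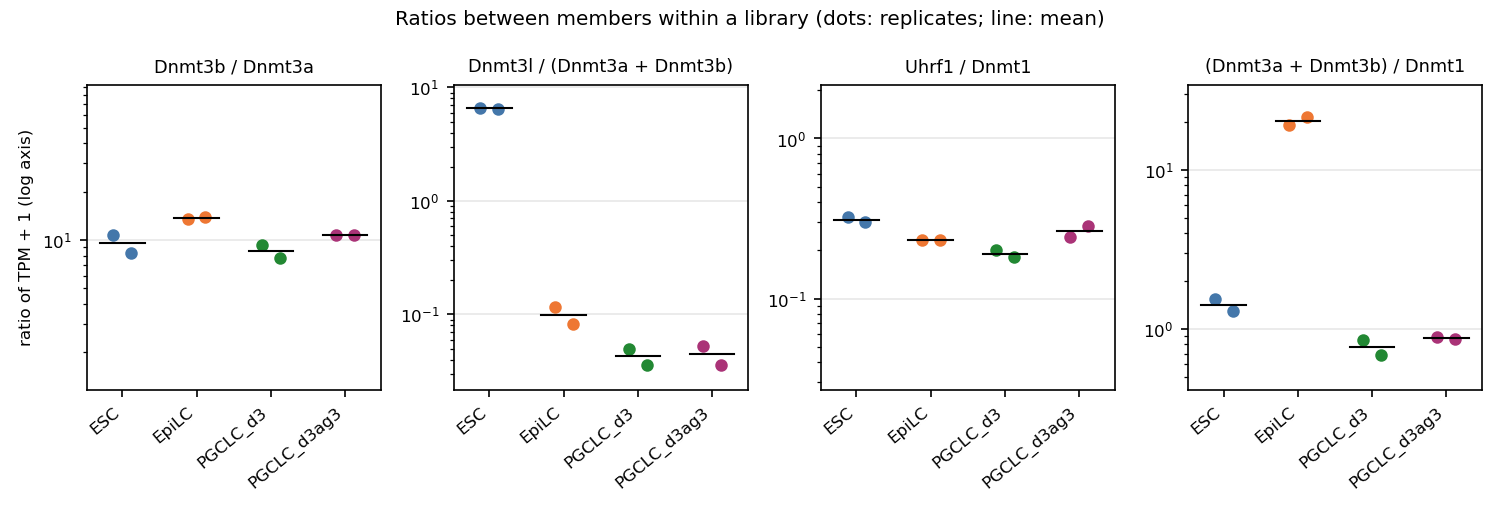
Ratios of TPM + 1 between members within each library on log axes, by group, with dots for the replicates and a line for their mean. The ratio of Dnmt3l to the de novo enzymes drops from 6.55 in ESC to 0.0993 in EpiLC, and the ratio of the de novo enzymes to Dnmt1 peaks at 20.4 in EpiLC. The ratio of Dnmt3b to Dnmt3a stays between 7.72 and 14.0 with the added 1, but its mean in PGCLC_d3ag3 is 15.8 with TPM + 0.1.

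Genes with the most similar profile were sought for each member by the root-mean-square difference over the 8 libraries, after removing each gene's own mean. Among the tested genes, leaving out clone-style symbols, Dnmt3a and Dnmt3b were each other's nearest, at a difference of 0.28 log2 units (Pearson r = 0.9971 over the 8 libraries). For Dnmt3a the next were Hs6st2, a heparan sulfate sulfotransferase gene, and Arhgdib, and for Dnmt3b the same genes in reverse order. Dnmt3l had no near neighbour on this measure: the closest were Fgf4 at 1.25, Gja1 at 1.48 and Nid1 at 1.55. Their Pearson r with Dnmt3l was 0.9951, 0.9882 and 0.9853, so they shared the shape of its profile and differed in the size of the changes. Zfp57 was closest to Slc8b1 at 0.34, Ppp1r14c at 0.37 and Adm2 at 0.42. Uhrf2 lay within 0.05 of Utp14a, Map3k2 and Nop2. Dnmt1 was closest to Cacul1 (0.10), Lpar1 (0.11) and Lcp1 (0.12), Uhrf1 to Drc1 (0.14), Taf13 (0.15) and Wfdc2 (0.16), and Trim28 to the pyruvate kinase gene Pkm (0.10), Tmem9b (0.10) and Sema4f (0.11).

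Lists of genes around the members gave the setting of these changes, and 134 of their 135 genes were in the table. Over all tested genes, 35.4% rose and 31.8% fell from ESC to EpiLC, and 47.3% and 27.6% from EpiLC to PGCLC_d3. From PGCLC_d3 to PGCLC_d3ag3 the shares were 25.7% and 44.8%. These shares are the background for the counts of every list below. The 13 genes listed as maintenance partners do not all aid maintenance. Dppa3 and Setd7 act against it, and Paf1 encodes a transcription elongation factor. Of the 13, 9 rose and 2 fell from ESC to EpiLC, with Paf1 and Setd7 among those that rose and Dppa3 among those that fell. Then 3 rose and 5 fell from EpiLC to PGCLC_d3, and 7 rose and 3 fell from PGCLC_d3 to PGCLC_d3ag3. After median-of-ratios rescaling 2 rose and 10 fell in the second step, and 10 rose and 2 fell in the third. The medians of these steps were -0.125 and 0.26 as deposited, -0.39 and 0.47 after median-of-ratios rescaling, and -0.22 and 0.16 under quantile normalization. Cdca7, which recruits the remodeller HELLS, went from 68.1 ± 0.441 TPM in ESC to 226 ± 6.02 in EpiLC, 70.0 ± 2.61 in PGCLC_d3 and 140 ± 9.99 in PGCLC_d3ag3 (SD, n = 2). Dppa3, whose protein keeps UHRF1 from chromatin, fell from 1310 ± 4.49 TPM in ESC to 32.7 ± 8.44 in EpiLC and rose to 382 ± 9.58 in PGCLC_d3. Cdca7l rose by 2.715 at the first step, Cdk1 fell by 0.92 at the second, and Hells and Hdac2 rose by 0.88 and 0.92 at the third.

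Dnmt1 and Uhrf1 are expressed with DNA replication, so the 22 replication genes are given beside them. From EpiLC to PGCLC_d3, 12 of them fell and 5 rose, with a median of -0.21 beside -1.705 for Dnmt1 and -1.98 for Uhrf1. The replication median of this step was -0.47 after median-of-ratios rescaling, with 16 lower and 3 higher, and -0.37 under quantile normalization, with 15 lower and 6 higher. The cyclin gene Ccne1 fell by 2.92, Cdc6 by 1.74 and Rrm2 by 0.93. From ESC to EpiLC 12 rose, including Ccne1 by 1.19, E2f1 by 0.84 and Mcm7 by 0.83, and 3 fell. From PGCLC_d3 to PGCLC_d3ag3 9 rose and 10 fell, with a median of -0.08 that became 0.13 after median-of-ratios rescaling, and Pole fell by 0.93, Tyms by 0.65 and Rrm1 by 0.64. The part of cell cycle in the fall of Dnmt1 and Uhrf1 was not tested.

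Among known repressors of the DNA methyltransferase genes is Prdm14, which represses Dnmt3 genes in mouse. Prdm14 moved opposite to Dnmt3a and Dnmt3b at the first and second steps. Dnmt3l fell together with Prdm14 at the first step, by 1.89, and Dnmt3a at the third, by 0.49. The part of Prdm14 in the changes of the members was not tested. Prdm14 fell from 16.9 ± 0.867 TPM in ESC to 0.0614 ± 0.0868 in EpiLC, rose to 86.0 ± 3.75 in PGCLC_d3 and was at 37.6 ± 3.00 in PGCLC_d3ag3 (SD, n = 2). The list drawn up for repressors of the DNA methyltransferase genes holds 7 genes. Besides Prdm14 and Prdm1, these are E2f6, L3mbtl2, Pcgf6, Max and Mga, genes of a Polycomb complex known for repressing germline genes. Their action on the DNA methyltransferase genes was not tested. Of the 7 listed genes, 2 rose and 3 fell from ESC to EpiLC, or 0 and 3 after median-of-ratios rescaling and 3 and 2 under quantile normalization. From EpiLC to PGCLC_d3 4 rose and 2 fell, with a median of 0.23 that became -0.04 after median-of-ratios rescaling, and 1 rose and 5 fell from PGCLC_d3 to PGCLC_d3ag3. In that last step the median of -0.36 became -0.15 after median-of-ratios rescaling, with 1 higher and 3 lower, and -0.235 under quantile normalization. Prdm1, which encodes BLIMP1, rose by 5.81 at the second step and fell by 1.504 at the third. E2f6 rose by 0.78 at the second step, or by 0.51 after median-of-ratios rescaling, L3mbtl2 fell by 1.01 at the first and Mga fell by 1.38 at the third. Mga also rose by 0.36 at the first step (adjusted p = 0.0411), a call lost without ESC replicate 1 (0.15, adjusted p = 0.327) and after median-of-ratios rescaling (adjusted p = 0.0527).

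Of the partners of TRIM28, 11 of 16 rose from ESC to EpiLC and 0 fell, with a median of 0.52 (0.04 over all tested genes), opposite in sign to Trim28 itself, which fell by 0.84. Setdb1, the H3K9 methyltransferase that TRIM28 recruits, rose by 0.99, its partner Atf7ip by 0.92 and Pphln1, a HUSH complex subunit gene, by 3.38. From EpiLC to PGCLC_d3 11 fell and 3 rose, with a median of -0.42, which became -0.68 after median-of-ratios rescaling (13 fell, 1 rose) and -0.73 under quantile normalization (12 fell, 1 rose). Chd3 was at -3.11, Pphln1 at -2.18 and Morc3 at -1.35 in that step. From PGCLC_d3 to PGCLC_d3ag3 5 rose and 7 fell, with a median of -0.19 that became 0.01 and 0.12 after median-of-ratios and quantile rescaling. Mphosph8 rose at each of the 3 steps, by 0.38, 1.03 and 1.285, and in the last Smarcad1 and Setdb1 fell by 1.05 and 0.83.

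Writers and erasers of the histone marks that guide or bar de novo methylation rose in 8 of 12 cases and fell in 1 from ESC to EpiLC, led by Kdm5b at 2.325, Nsd2 at 0.98 and Ehmt2 at 0.94. In the step from EpiLC to PGCLC_d3 5 rose and 4 fell, with a median of 0.22 that became -0.04 and -0.09 after median-of-ratios and quantile rescaling. This step had Kdm1b, an H3K4 demethylase needed for imprints in oocytes, at 1.31, Ehmt2 at 1.12 and Nsd1 at -0.89. From PGCLC_d3 to PGCLC_d3ag3 8 fell and 2 rose, with a median of -0.29. After median-of-ratios rescaling 5 fell, with a median of -0.08, and under quantile normalization 6 fell, with a median of -0.17. Nsd1, which writes the H3K36 methylation read by DNMT3A, fell from 24.6 ± 0.528 to 5.71 ± 0.319 TPM (SD, n = 2) in that step, Ehmt2 fell by 1.08 and Kmt2b by 0.79, the latter by 0.47 under quantile normalization. The 9 tested genes listed as methyl-CpG readers include Mbd3 and Mbd6, whose proteins lack selective binding to methylated CpG. Of the 9, 3 rose and 4 fell, 6 rose and 1 fell, and 1 rose and 5 fell in the successive steps. With either rescaling the counts of the second step were 2 up and 2 down, and those of the third were 2 up and 3 down after median-of-ratios rescaling, and 3 up and 3 down under quantile normalization. The median of the third step went from -0.29 to -0.09 and 0.03. Zbtb38 fell by 1.28 in EpiLC while Zbtb33 rose by 0.99 and Mbd2 by 0.36. Mbd1 rose by 0.54 and Zbtb4 by 0.67 in PGCLC_d3, the latter with adjusted p = 0.0522 without EpiLC replicate 1. The rise of Mbd1 was 0.28 after median-of-ratios rescaling and 0.27 under quantile normalization. Mbd2 fell by 1.25, Mbd6 by 0.94 and Zbtb4 by 0.66 in PGCLC_d3ag3. Under quantile normalization Mbd6 fell by 0.596 and Zbtb4 by 0.416.

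Supply and use of the methyl donor were described by 11 genes, of which 7 rose and 3 fell from ESC to EpiLC. From EpiLC to PGCLC_d3 5 rose and 4 fell. After that 3 rose and 4 fell, or 5 and 4 after median-of-ratios rescaling and 5 and 3 under quantile normalization. The median of the second step, -0.06, became -0.33 after median-of-ratios rescaling and -0.09 under quantile normalization, and that of the third, 0.01, became 0.23 and 0.12. Tdh, a threonine dehydrogenase gene that feeds S-adenosylmethionine synthesis in mouse ESC, fell from 683 ± 5.70 TPM in ESC to 12.3 ± 2.06 in EpiLC and 2.79 ± 0.204 in PGCLC_d3, and was at 10.1 ± 0.606 in PGCLC_d3ag3 (SD, n = 2). Mat2a, the S-adenosylmethionine synthetase gene, fell by 1.35 from EpiLC to PGCLC_d3, where Gnmt, whose protein uses up S-adenosylmethionine, rose by 2.39. Mat2b fell by 1.23 at the first step, and Shmt2 fell by 1.01 at the last. Among 9 tested demethylation genes, Tet2 fell from 74.1 ± 6.65 TPM in ESC to 0.864 ± 0.156 in EpiLC and rose to 10.6 ± 0.434 in PGCLC_d3 (SD, n = 2), and Tet1 and Tet3 fell by 1.13 and 1.74 at that second step. In the successive steps of that list 4 rose and 4 fell, 5 rose and 3 fell, and 2 rose and 3 fell. After median-of-ratios rescaling the second and the third of these were 2 up and 4 down, and 4 up and 2 down, and under quantile normalization 3 up and 4 down, and 3 up and 3 down. Gadd45g fell by 4.60 and Tdg rose by 1.96 in EpiLC, and Gadd45b and Gadd45g rose by 1.49 and 1.33 and Tdg fell by 0.77 in PGCLC_d3ag3.

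Genes known from mouse to depend on DNA methylation for their silencing or their imprinted expression were counted beside the members. Of 14 germline genes silenced by promoter methylation, 11 rose and 1 fell from ESC to EpiLC, where Dnmt3a and Dnmt3b rose and Dnmt3l fell. In that step 11 rose and 2 fell after median-of-ratios rescaling, and 9 rose and 2 fell under quantile normalization. Then 12 fell and 1 rose from EpiLC to PGCLC_d3, and 14 of 14 rose from PGCLC_d3 to PGCLC_d3ag3, with a median of 4.07. Ddx4, Dazl, Mael and Sycp3 stand on both this list and that of gonadal germ cell markers. Ddx4 was at 148 ± 20.2 TPM in EpiLC, 1.29 ± 0.0179 in PGCLC_d3 and 202 ± 2.29 in PGCLC_d3ag3, and Dazl at 13.6 ± 0.0429, 0.369 ± 0.0302 and 785 ± 30.4 (SD, n = 2). Tex101 rose by 5.68 at the last step, Asz1 fell by 3.31 at the second, and Sycp3, Taf7l and Tex14 rose by 2.79, 2.45 and 2.38 at the first. Of 19 imprinted genes, 14 rose and 2 fell from ESC to EpiLC, 7 rose and 8 fell from EpiLC to PGCLC_d3, and 1 rose and 15 fell from PGCLC_d3 to PGCLC_d3ag3. In the last step 14 fell after median-of-ratios rescaling and 13 under quantile normalization, and 44.8% of all tested genes fell as deposited. Under quantile normalization 10 rose in the first step. Zfp57 fell in both the first and the last step, and its part in these counts was not tested. The median of the middle step, 0.02, became -0.23 and -0.34 after median-of-ratios and quantile rescaling. Peg3 went from 12.6 ± 0.845 TPM in EpiLC to 428 ± 22.3 in PGCLC_d3 and 62.2 ± 3.78 in PGCLC_d3ag3 (SD, n = 2). Mest rose by 3.48 at the first step and fell by 2.91 and 2.79 at the others, Phlda2 rose by 3.20 at the second step and fell by 3.42 at the third, and Nap1l5 and Peg10 rose by 4.13 and 3.72 in EpiLC. Expression was measured here, not methylation or the parental allele.

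**Figure D4:**
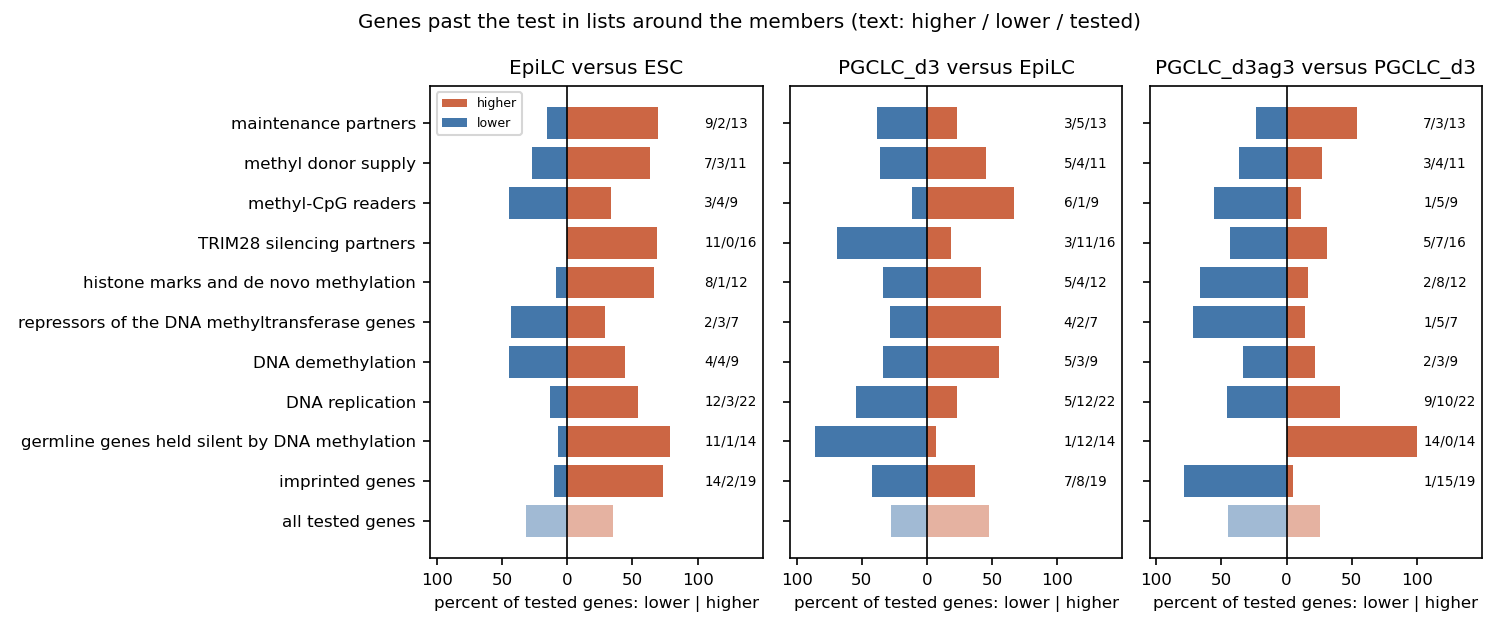
Percent of the tested genes of each list that were higher (right) or lower (left) at an adjusted p under 0.05 in the 3 successive steps, with the counts of higher, lower and tested genes beside each bar and the share over all tested genes in the bottom row. In the last step 14 of 14 germline genes were higher and 15 of 19 imprinted genes lower.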

How the data were processed

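Per the labels' protocols, RNA came from the PicoPure kit and libraries from SMART-Seq v4 and KAPA Hyper Prep. The submitters' processing notes name bcl2fastq 2.20, cutadapt 1.1.6, HISAT2 2.1.0, featureCounts of Subread 1.6.5 and the genome build rn7; strand settings are not given in the sources used here. Log2(TPM + 1) is the unit the authors deposited, as the table's name gives it; TPM was recovered as 2 to the power of the value, minus 1. The 11066 blank rows were left out. Groups and replicate numbers come from the sample titles. Genes with at least 1 TPM in at least 2 of 8 libraries (13571) were fitted with limma 3.58.1 in R 4.3.3 (lmFit, eBayes with trend, 2-sided), all 4 groups together, with 4 residual degrees of freedom, and adjusted by Benjamini-Hochberg over all tested genes. The fit was tested on simulated data with 200 changed genes. TPM keeps no read totals, so depth is relative and taken from the spacing of low values. The members and the 10 gene lists were chosen with earlier results of these data known. Named genes are the 8 members, up to 3 genes past the test with the largest change in each list and step, and the 3 genes most like each member, leaving out clone-style symbols; a few genes chosen this way are not reported here. Of the 135 listed genes 132 were tested: the others were not analysed here or did not pass the filter. Alternatives were a pseudocount of 0.1, no filter, a filter at 5 TPM, 2 rescalings, a fit of the compared groups alone, no trend, a replicate block and leaving out each library. A single remaining library is assumed to vary like the other groups. The part of mouse feeder reads in the ESC values was not tested; fibroblast markers summed to 27.9 to 34.8 TPM in ESC, 55.5 to 101 in EpiLC and at most 20.9 in the germ cell groups.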

Additional observations from a re-analysis of the deposited data

How the results depend on the processing

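Each of the 48 member changes was recomputed under 8 other settings and with each of the 8 libraries left out. Of 384 values under other settings 369 kept direction and call, 4 lost the call, 7 gained it and 4 changed sign; of 384 with a library left out the numbers were 374, 2, 4 and 4. The changes of sign were confined to differences that did not pass the test, with Uhrf2 as the exception. From PGCLC_d3 to PGCLC_d3ag3, Dnmt3b was 0.058 after median-of-ratios rescaling and 0.101 under quantile normalization, and Trim28 was 0.11 after median-of-ratios rescaling. Uhrf2 in PGCLC_d3 versus ESC was -0.003 after median-of-ratios rescaling. With a library left out, Zfp57 in PGCLC_d3 versus EpiLC ranged from -0.135 to 0.021, Dnmt3l in PGCLC_d3ag3 versus PGCLC_d3 from -0.50 to 0.22 and Uhrf1 in the same comparison from -0.18 to 0.33. The count of changed genes and the count of changed members stayed within 1.5 times in each comparison under every setting run. The labels do not say whether the replicate numbers of the titles pair the libraries. The deviations of same-numbered libraries correlated between groups at -0.037 to 0.066 across genes, so no shared deviation was seen. With the number as a replicate block, 9171 genes changed in EpiLC versus ESC (9129 without), 10211 in PGCLC_d3 versus EpiLC (10171) and 9589 in PGCLC_d3ag3 versus PGCLC_d3 (9560), and no call of a member changed. Depth limits the precision of Dnmt3l in both germ cell groups and of Zfp57 in PGCLC_d3ag3, whose values lie below 1 TPM.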
